A study of Mus musculus with 6 samples.

Results

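The genes described here are 10 components of the Notch pathway in mouse cells: the receptors Notch1, Notch2 and Notch3, the ligands Jag1 and Jag2, the DNA-binding factor Rbpj, and the target genes Hes1, Hey1, Hey2 and Heyl. They were chosen by name as receptors, ligands, mediator and classical targets of 1 pathway, with earlier results of these data known. All 10 were found among the 22942 genes of the deposited tables. Each gene is represented by its transcript with the highest mean RPKM, a level that divides reads by transcript length and library size, over the 6 libraries.

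RNA was sequenced from the mouse mesenchymal line C3H-10T1/2, whose cells can turn into fat cells in culture, after 6 days of brown adipocyte differentiation. Of the 6 libraries, 3 were of cells exposed to 4 uM 611, or Cpd A, which inhibits the chromatin enzyme LSD1, and 3 of cells exposed to DMSO, the solvent. Both groups had the same induction medium for 72 h, with isobutylmethylxanthine, indomethacin, dexamethasone, insulin, T3, rosiglitazone and 10% serum, followed by insulin, T3 and rosiglitazone. The labels place the start of the compound both at seeding and 12 h after it, with induction 48 h later. The 3 libraries of a group are biological triplicates per the series' design text, and p-values measure the spread between these cultures of 1 line.

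Library totals, read from the step between low RPKM values, were 4.08e+07 to 4.12e+07 with 611 and 3.89e+07 to 3.99e+07 with DMSO. Log values correlated across genes at 0.996 to 0.997 within groups and at 0.972 to 0.979 between groups. Cells of both groups expressed general fat cell genes, with 9 of 9 markers tested and lower with 611, summing to 15000 to 16610 RPKM with 611 and 28850 to 30110 with DMSO. Of 9 brown fat markers, 7 could be tested and 5 were lower, and the sum was 86.1 to 105 with 611 against 226 to 271 with DMSO. The defining brown fat gene, Ucp1, stood at 0 in each of the 6 tables. Mesenchymal markers were higher with 611 in 9 of 9 cases, with sums of 2691 to 2874 RPKM against 1200 to 1278. By the same call, 41.6% of all 13829 genes tested were higher with 611 and 17.7% lower. The called markers with the largest changes were the fat cell genes Lpl (804 RPKM on average with 611 and 1648 with DMSO), Cidec (1778 and 3522) and Fabp4 (10946 and 21052). Among brown fat genes they were Cox8b (3.28 and 28.1), Cidea (9.42 and 61.7) and Cox7a1 (3.20 and 8.60), and among mesenchymal genes Fn1 (211 and 64.9), Col1a1 (206 and 80.6) and S100a4 (739 and 294). In these bulk samples, a change in the number of cells of a type and a change in RNA per cell cannot be told apart.

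Notch receptors are membrane proteins that are cut when a ligand on a neighbouring cell binds them. The freed intracellular part enters the nucleus, joins the DNA-binding protein RBPJ and coactivators, and turns on genes of the Hes and Hey families, which encode repressors of the basic helix-loop-helix class. Without that signal RBPJ recruits corepressors, and LSD1 has been described with RBPJ at Notch target genes. In mice, Notch signalling in fat tissue is known to hold back the brown fat program of white fat cells.

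With 611, the receptors, the ligand Jag1, the mediator Rbpj and the target Hes1 were all higher, while the Hey genes were not called. Of the 10 genes, 8 reached 0.1 RPKM in 3 or more libraries and were tested. With 611, 6 of these 8 were higher and 0 lower (limma, with p adjusted by Benjamini-Hochberg over 13829 genes and called below 0.05). The threshold was also passed upward by 41.6% of all genes tested and downward by 17.7%. The median log2 fold change of the 8 tested genes was 0.61, and that of all genes was 0.10. No tested member was lower at an unadjusted p below 0.05 either, a count of 0 with limma, the only tool run. With libraries rescaled by median-of-ratios size factors, the median of all genes was close to 0 (-0.0028) and the same 6 members were higher, with 28.5% of all genes higher and 28.6% lower. In the same 6 genes every 611 library lay above every DMSO library, as in 45.8% of all genes tested, and in 0 of the 8 did every 611 library lie below, as in 20.4% of all genes. Jag2 and Heyl were too low to test.

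**Figure D1:**
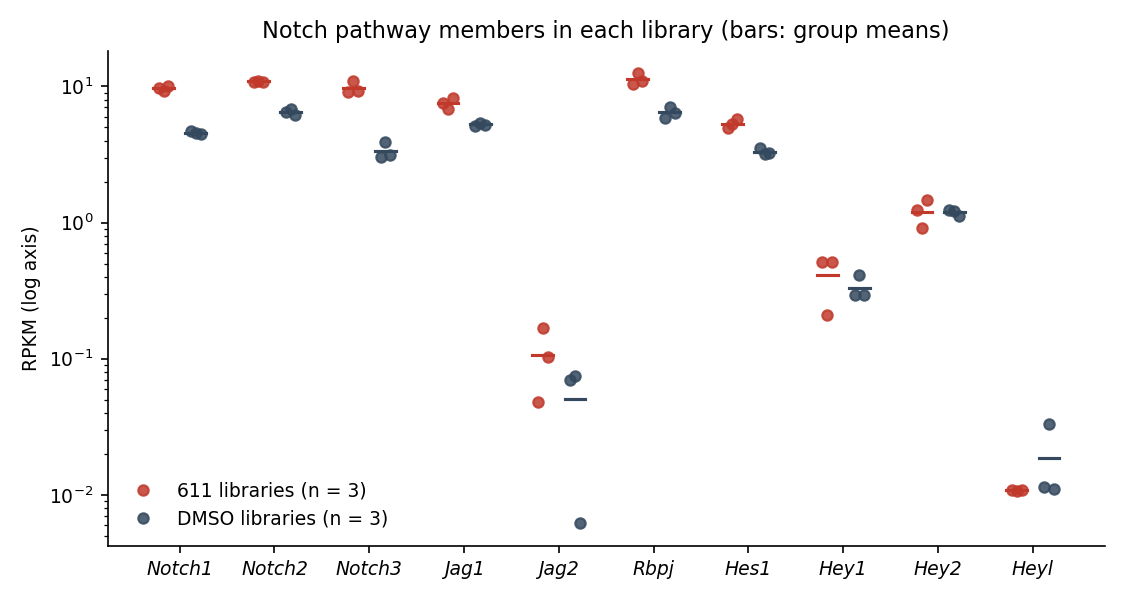
RPKM of the 10 genes in each library on a log axis, with 611 libraries left of DMSO libraries for each gene, points for libraries and bars for group means (n = 3). For Notch1, Notch2, Notch3, Jag1, Rbpj and Hes1 the 611 points lie above all DMSO points, while Hey1, Hey2 and Jag2 overlap. Heyl lies near 0.011 RPKM in 5 of 6 libraries.

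The receptors rose to unequal degrees. Notch3, the receptor known for its part in vascular smooth muscle and pericytes, had 9.06, 10.9 and 9.22 RPKM in 611 replicates 1, 2 and 3, against 3.04, 3.92 and 3.13 RPKM in DMSO replicates 1, 2 and 3. Replicate 2 was the highest library in each group, and the lowest 611 library was above the highest DMSO library. Its mean was 9.72 ± 1.01 RPKM with 611 and 3.37 ± 0.485 with DMSO (SD, n = 3 each), 2.89-fold higher, with a log2 fold change of 1.30 ± 0.09 (SE; limma Benjamini-Hochberg adjusted p = 6.3e-06). That log2 fold change ranked 165 among 13829 genes. These levels rest on 2964 to 3593 reads per 611 library and 947 to 1249 per DMSO library at the reference transcript length.

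Notch1, the most widely studied receptor, had 9.74, 9.31 and 10.0 RPKM with 611 and 4.67, 4.58 and 4.49 with DMSO. All 611 values were about double the DMSO values, and the spread within a group was small. The mean was 9.68 ± 0.345 RPKM against 4.58 ± 0.0931, 2.11-fold higher (log2 fold change 0.94 ± 0.05 SE, limma Benjamini-Hochberg adjusted p = 1.5e-06). Notch2, the most abundant receptor of the DMSO cells, had 10.8, 11.0 and 10.8 RPKM with 611 and 6.49, 6.81 and 6.16 with DMSO. Its groups were also apart, and it was 1.68-fold higher (log2 fold change 0.67 ± 0.05 SE, limma Benjamini-Hochberg adjusted p = 7.9e-06). RefSeq lists noncoding RNAs that overlap each of these receptor genes, and reads from the 2 strands cannot be told apart in the tables.

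Summed over the 3 receptors, transcripts came to 29.6, 31.2 and 30.0 RPKM with 611 and 14.2, 15.3 and 13.8 with DMSO. Notch3 held 32.1% ± 2.42 of that sum with 611 and 23.3% ± 2.16 with DMSO (SD, n = 3 each). Notch2 held 35.9% ± 0.618 and 45.0% ± 0.653, and the share of Notch1 was 32.0% ± 1.90 and 31.8% ± 1.65. The share of Notch3 was thus larger with 611 and that of Notch2 smaller, with no overlap between the groups in either.

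**Figure D2:**
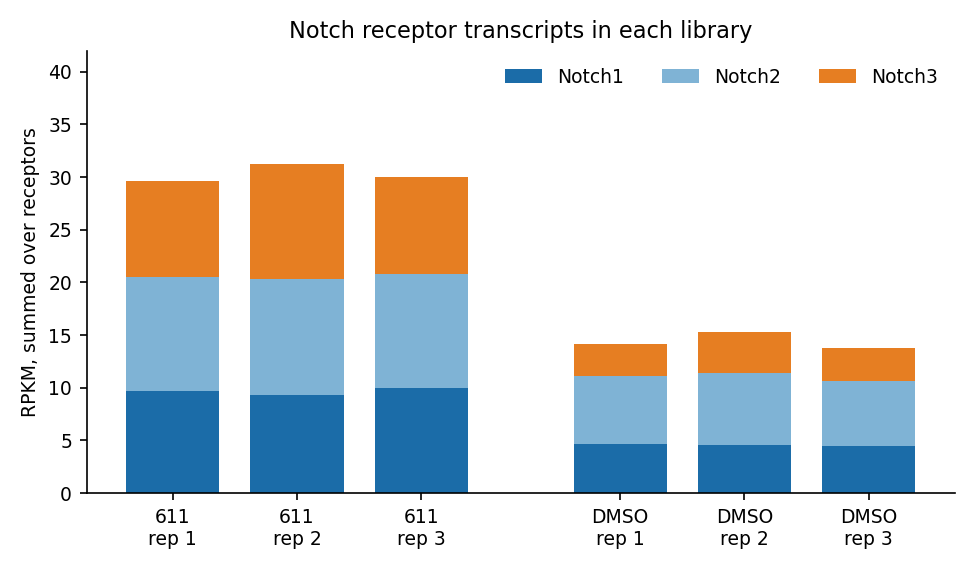
Summed RPKM of Notch1, Notch2 and Notch3 in each library, 611 libraries on the left and DMSO libraries on the right. The bars reach 29.6 to 31.2 RPKM with 611 and 13.8 to 15.3 with DMSO, and the Notch3 segment takes the larger share with 611.

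Ratios within a library do not depend on how libraries are scaled. The ratio of Notch3 to Notch2 was 0.837, 0.987 and 0.856 with 611 and 0.468, 0.576 and 0.509 with DMSO, a difference of 0.79 in mean log2 ratio. The ratio of Notch3 to Notch1 was 0.930, 1.17 and 0.923 with 611 and 0.650, 0.857 and 0.698 with DMSO, a difference of 0.455. The ratio of Notch1 to Notch2 differed by 0.33. All 3 ratios were higher in each 611 library than in each DMSO library. The exact two-sided permutation test gave p = 0.1 for each of 5 ratios compared, the smallest p that 3 against 3 libraries allow, and 0.1 after Benjamini-Hochberg adjustment, so this test could not bring any ratio below 0.05.

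The ligands differed in level more than in change. Jag1, a membrane ligand that binds these receptors, had 7.58, 6.88 and 8.27 RPKM with 611 and 5.15, 5.42 and 5.23 with DMSO. Its lowest 611 library lay above its highest DMSO library. Its mean was 7.57 ± 0.695 RPKM against 5.27 ± 0.143, 1.44-fold higher (log2 fold change 0.45 ± 0.07 SE, limma Benjamini-Hochberg adjusted p = 4.3e-04). Relative to the summed receptors Jag1 was lower with 611, with ratios of 0.256, 0.220 and 0.276 against 0.362, 0.354 and 0.380, a difference of -0.55 in mean log2 ratio.

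Jag2, the other Jagged ligand, had 0.0483, 0.168 and 0.103 RPKM with 611 and 0.0698, 0.0745 and 0.00619 with DMSO. These values came out as 8, 28 and 17 reads with 611 and 11, 12 and 1 with DMSO at the transcript length that gave whole reads. The groups overlapped, and without a filter on low values limma gave a Benjamini-Hochberg adjusted p of 0.237. A level of 3 reads would be 0.0180 to 0.0181 RPKM with 611 and 0.0186 to 0.0190 with DMSO. Floors of this kind cover counting error only.

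Other receptors and ligands were low in both groups, and of 6 such genes found 3 could be tested and 0 passed in either direction. Dll1, a Delta-like ligand, had 0.329, 0.305 and 0.221 RPKM with 611 and 0.143, 0.147 and 0.205 with DMSO. The groups did not overlap but the change missed the threshold (log2 fold change 0.14 ± 0.06 SE, limma Benjamini-Hochberg adjusted p = 0.0668). Notch4, a receptor best known from endothelium, had 0.122, 0.158 and 0.196 RPKM with 611 and 0.191, 0.194 and 0.194 with DMSO (adjusted p = 0.520). Dlk1, a membrane protein of preadipocytes that resembles the Delta ligands, had 0.288, 0.565 and 0.355 RPKM with 611 and 0.291, 0.441 and 0.283 with DMSO (adjusted p = 0.539). Dll3, Dll4 and Dner were too low to test.

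Rbpj, the DNA-binding factor through which all receptors signal, had 10.4, 12.5 and 10.9 RPKM with 611 and 5.91, 7.09 and 6.38 with DMSO. As for Notch3, replicate 2 was the highest library in both groups, and the groups did not overlap. Its mean was 11.3 ± 1.07 RPKM against 6.46 ± 0.595, 1.75-fold higher (log2 fold change 0.72 ± 0.08 SE, limma Benjamini-Hochberg adjusted p = 7.1e-05). The other transcripts of Rbpj gave log2 fold changes of 0.72 and 0.72, and their reads are largely shared. RefSeq lists 3 pseudogene copies of Rbpj, and the sources used here do not say how reads that match several copies were assigned.

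Hes1, the repressor gene most often read as a Notch target, had 4.93, 5.32 and 5.71 RPKM with 611 and 3.53, 3.19 and 3.22 with DMSO. The groups were apart. Its mean was 5.32 ± 0.392 RPKM against 3.31 ± 0.189, 1.61-fold higher (log2 fold change 0.55 ± 0.07 SE, limma Benjamini-Hochberg adjusted p = 1.2e-04). About 295 to 343 reads per 611 library and 186 to 201 per DMSO library stood behind it.

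The Hey genes, which encode relatives of Hes1 that act downstream of Notch in heart and vessels, gave no call. Hey2 had 1.24, 0.911 and 1.46 RPKM with 611 and 1.23, 1.22 and 1.11 with DMSO. The 611 libraries lay on both sides of the DMSO libraries. Its means were 1.20 ± 0.276 and 1.19 ± 0.0673 RPKM, with a log2 fold change of 0.00 and a 95% limma interval from -0.21 to 0.21 (Benjamini-Hochberg adjusted p = 0.983). The interval lies below the log2 fold change of Hes1, and the ratio of Hes1 to Hey2 was 3.98, 5.84 and 3.92 with 611 and 2.87, 2.61 and 2.90 with DMSO. That ratio differed by 0.69 in mean log2 ratio (exact two-sided permutation p = 0.1, the smallest possible).

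Hey1 had 0.511, 0.209 and 0.510 RPKM with 611 and 0.292, 0.411 and 0.296 with DMSO. In reads these were 46, 19 and 46 with 611 and 25, 36 and 26 with DMSO. Replicate 2 was the lowest 611 library and the highest DMSO library, so the groups overlapped. The log2 fold change was 0.07 with a 95% interval from -0.14 to 0.29 (limma Benjamini-Hochberg adjusted p = 0.518). Without 611 replicate 2 it was 0.18 (adjusted p = 0.0553). With 0.1 instead of 1 added to each RPKM value, the log2 fold change of Hey1 was 0.18 with a 95% interval from -0.47 to 0.83. That interval included the 0.67 of Hes1 in the same setting. Heyl had 2 reads in each 611 library and 2, 6 and 2 reads in the DMSO libraries, so all libraries but DMSO replicate 2 lay under the floor of 3 reads, at 0.0161 to 0.0162 RPKM with 611 and 0.0166 to 0.0170 with DMSO. A difference of Heyl was not detectable at this depth.

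**Figure D3:**
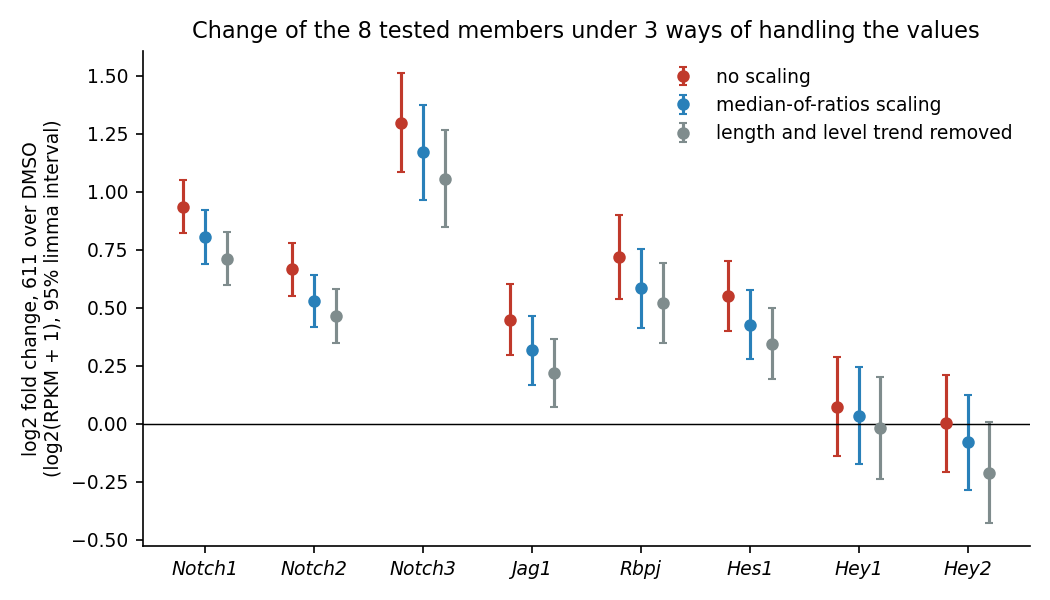
Log2 fold change of the 8 tested genes (611 over DMSO, on log2(RPKM + 1)) with 95% limma intervals, without scaling, after median-of-ratios scaling, and after removal of the trend on transcript length and level. Notch3 lies between 1.06 and 1.30, Jag1 falls to 0.22, and the intervals of Hey1 and Hey2 include 0 in each case.

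By level, which RPKM allows between genes, the order with 611 was Rbpj, Notch2, Notch3, Notch1, Jag1, Hes1, Hey2, Hey1, Jag2 and Heyl. The first 4 overlapped with their neighbours in that order. With DMSO the order was Notch2, Rbpj, Jag1, Notch1, Notch3, Hes1, Hey2, Hey1, Jag2 and Heyl, and the neighbours Notch2 and Rbpj, Notch3 and Hes1, and Jag2 and Heyl overlapped.

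**Figure D4:**
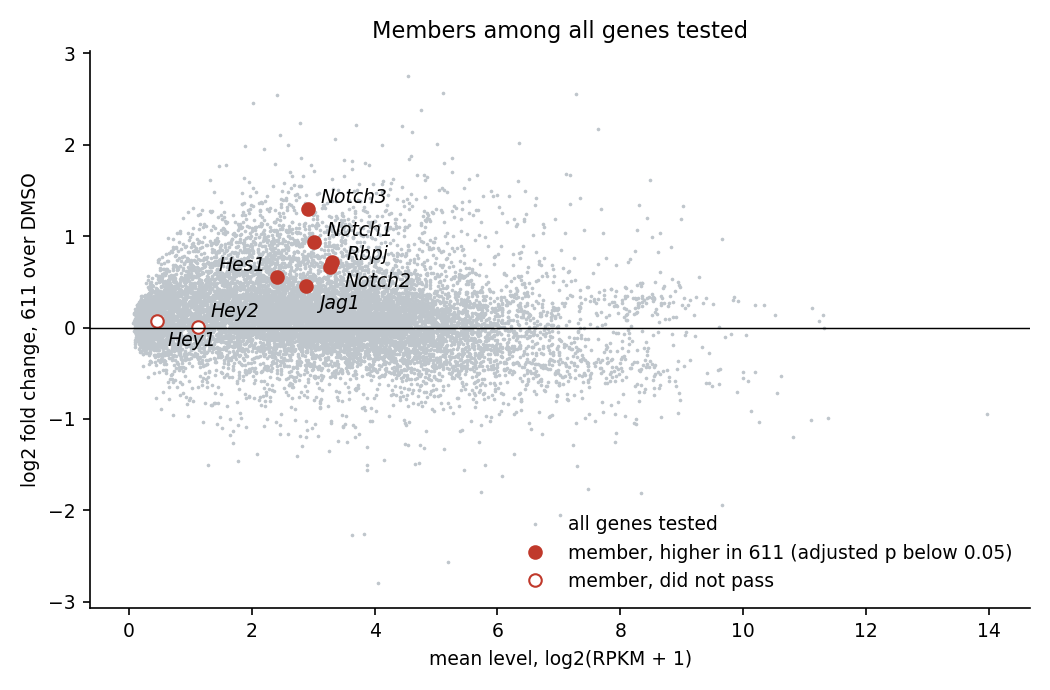
Mean level (log2(RPKM + 1), x axis) against log2 fold change (611 over DMSO, y axis) for the 13829 genes tested, with the 8 tested members marked. The 6 called members lie between 0.45 and 1.30, and Hey1 and Hey2 lie close to 0 at the low end of the level axis.

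Promoter sequence was read for 7 of the 10 genes from RefSeq windows on GRCm38.p6, a later build than mm9, which the authors used. Hey2 and Rbpj are shown because their windows hold the RBPJ motif, and Notch1 and Notch3, the receptors with the largest rises, because theirs hold the N-box bound by HES proteins. Each window runs from 250 bases before the start to 10 after it, on the strand of the gene, and capitals mark RBPJ motifs in the first pair and N-boxes in the second.
Hey2, chr10:30842774-30843033, minus strand: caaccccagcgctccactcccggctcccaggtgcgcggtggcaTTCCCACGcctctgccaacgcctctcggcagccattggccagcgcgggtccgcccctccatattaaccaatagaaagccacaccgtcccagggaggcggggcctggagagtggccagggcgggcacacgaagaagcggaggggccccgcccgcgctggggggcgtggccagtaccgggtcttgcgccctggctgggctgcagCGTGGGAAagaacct
Rbpj, chr5:53590096-53590355, plus strand: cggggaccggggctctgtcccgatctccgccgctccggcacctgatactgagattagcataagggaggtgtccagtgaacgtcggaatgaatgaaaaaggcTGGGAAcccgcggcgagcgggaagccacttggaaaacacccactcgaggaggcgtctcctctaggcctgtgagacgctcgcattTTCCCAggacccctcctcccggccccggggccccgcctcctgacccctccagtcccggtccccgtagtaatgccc
Notch1, chr2:26503813-26504072, minus strand: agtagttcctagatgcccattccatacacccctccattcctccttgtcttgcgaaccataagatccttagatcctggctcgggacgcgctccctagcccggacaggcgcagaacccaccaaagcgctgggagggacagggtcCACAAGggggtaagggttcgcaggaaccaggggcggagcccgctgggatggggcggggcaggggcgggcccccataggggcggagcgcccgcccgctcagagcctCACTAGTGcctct
Notch3, chr17:32166881-32167140, minus strand: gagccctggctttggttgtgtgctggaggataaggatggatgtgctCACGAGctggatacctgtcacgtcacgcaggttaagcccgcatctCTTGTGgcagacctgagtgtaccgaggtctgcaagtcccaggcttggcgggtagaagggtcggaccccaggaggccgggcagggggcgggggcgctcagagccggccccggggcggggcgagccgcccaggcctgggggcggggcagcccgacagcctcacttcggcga

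The motifs were searched on both strands over 300 bases, 250 before the start and 50 after it. The RBPJ core TGGGAA was present in 25.6% of 32851 such windows of the genome, and its extended form CGTGGGAA, which contains the core, in 0.734%. The Hey2 window held the extended form in 2 places, from -207 to -200 on the opposite strand and from -5 to 3 on the strand of the gene. Both windows of Rbpj held the core without the extension. These windows overlap, and the only match in the second is the same site as a match in the first. The windows of Notch1, Notch2, Notch3, Jag1 and Jag2 held neither form. The N-box CACNAG was present in 42.5% of all windows, and had 3 matches for Notch1, of which 2 overlap at the start site, 2 for Notch3 and 1 for Notch2. The E-box CACGTG, present in 7.15% of windows, had no match for these genes. A match is a match of letters and no evidence of binding.

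Around these 10 genes, 81 other pathway genes were listed by role, and 80 were found, of which 70 could be tested. With 611, 39 of the 70 were higher and 6 lower, or 55.7% and 8.57%, beside 41.6% and 17.7% of all genes. Their median log2 fold change was 0.19 against 0.10 for all genes. Under median-of-ratios scaling the counts were 26 higher and 10 lower. The lists were chosen with earlier results of these data known, so these shares are a description and no test.

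**Figure D5:**
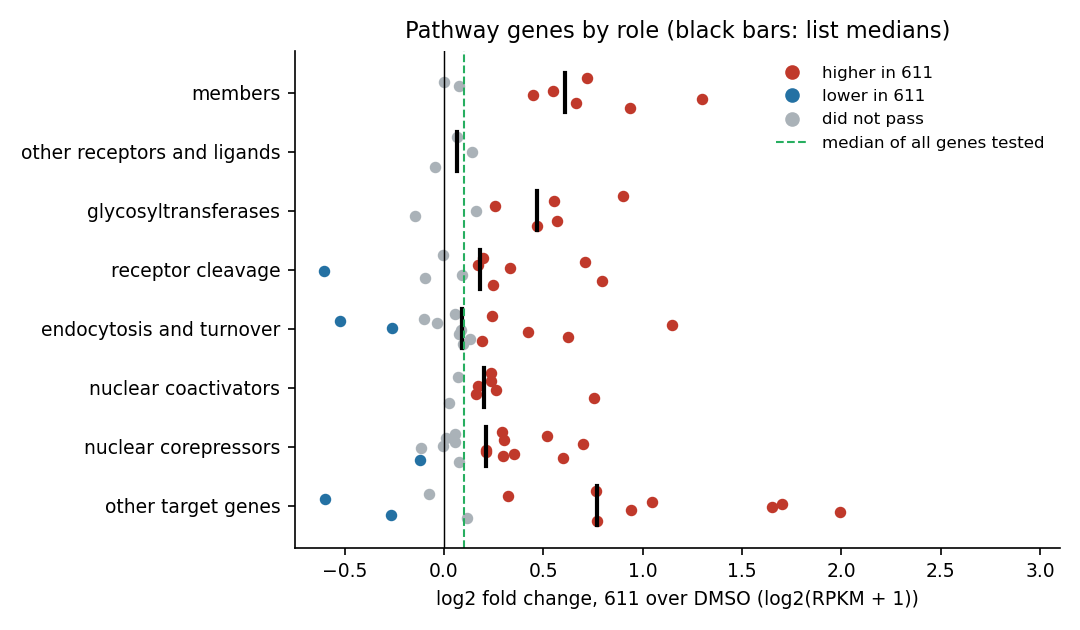
Log2 fold change (611 over DMSO) of each tested gene in 8 lists by role, with points coloured by call, black bars for list medians and a dashed line for the median of all genes. The 10 chosen genes and the other target genes have the highest list medians, at 0.61 and 0.77, and the other receptors and ligands lie near 0.

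Among enzymes that put sugars on the receptors' extracellular repeats, 5 of 7 tested were higher and 0 lower (median log2 fold change 0.47), and with median-of-ratios scaling 4 and 0. Xxylt1, a xylosyltransferase, had 26.0 ± 0.557 RPKM with 611 and 13.4 ± 0.518 with DMSO, 1.93-fold higher (limma Benjamini-Hochberg adjusted p = 8.8e-07). Poglut1, which adds glucose, was 1.54-fold higher at 14.2 ± 0.410 RPKM against 9.22 ± 0.485, and Gxylt1, which adds xylose to that glucose, was also 1.54-fold higher. Lfng, a fringe enzyme that changes which ligands a receptor answers to, was at 7.05 ± 1.40 and 7.84 ± 0.545 RPKM and did not pass (adjusted p = 0.285).

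Of 10 proteases and subunits that cut the receptors, 6 were higher and 1 lower (median 0.18), and with median-of-ratios scaling 4 and 2. Adam10, the protease of the first ligand-dependent cut, had 31.8 ± 1.64 RPKM with 611 and 17.9 ± 0.422 with DMSO, 1.78-fold higher (limma Benjamini-Hochberg adjusted p = 2.0e-06). Its relative Adam17 was at 22.8 ± 0.548 and 24.4 ± 0.594 RPKM and did not pass (adjusted p = 0.0615), but was lower with median-of-ratios scaling (log2 fold change -0.24, adjusted p = 6.5e-04) and in the fit with the replicate block (adjusted p = 0.0246). Within gamma-secretase, the complex of the second cut, the subunit Aph1b was 1.85-fold higher at 5.37 ± 0.313 RPKM against 2.90 ± 0.294 and Ncstn was 1.28-fold higher. The catalytic subunit Psen2 was lower, at 21.8 ± 2.12 RPKM with 611 and 33.5 ± 1.80 with DMSO (log2 fold change -0.60, adjusted p = 8.7e-05).

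Genes of endocytosis and turnover had 5 of 14 tested members higher and 2 lower (median log2 fold change 0.09). Scaled by median-of-ratios factors, the list had 3 genes higher, 3 lower and a median of -0.05. Dtx3, of the Deltex ubiquitin ligase family, was 2.36-fold higher at 20.2 ± 1.29 RPKM against 8.55 ± 0.735 (limma Benjamini-Hochberg adjusted p = 2.3e-06). Its relatives Dtx4 and Dtx2 were lower, Dtx4 at 4.65 ± 0.404 RPKM against 7.11 ± 0.624 and Dtx2 at 15.1 ± 0.375 against 18.3 ± 1.89. Neurl1b, a ligase that promotes ligand uptake, was 2.60-fold higher at 1.32 ± 0.137 RPKM against 0.508 ± 0.0818, and Numbl, a relative of the Notch inhibitor Numb, was 1.40-fold higher.

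Coactivators were higher in 6 of 8 cases and lower in 0 (median 0.20), but with median-of-ratios scaling 1 of the 8 was higher. That was Maml2, of the Mastermind family that bridges RBPJ and the receptor's intracellular part, at 4.63 ± 0.298 RPKM with 611 and 2.34 ± 0.140 with DMSO (1.98-fold, limma Benjamini-Hochberg adjusted p = 1.7e-05). Snw1, at 30.2 RPKM with 611 and 25.0 with DMSO, and the acetyltransferase gene Kat2b, at 14.2 and 11.9, were called higher without scaling and not with it (adjusted p = 0.0731 and 0.140). Maml1, a relative of Maml2, was at 7.45 ± 0.225 and 7.29 ± 0.225 RPKM (adjusted p = 0.649). Corepressors were higher in 9 of 16 cases and lower in 1 (median 0.21), and after scaling in 6 and 3. Tle2, of the Groucho family recruited by HES proteins, was 1.68-fold higher, and L3mbtl3, a partner of RBPJ, was 1.61-fold higher at 4.11 ± 0.403 RPKM against 2.55 ± 0.130. Ncor1 was lower, at 27.2 ± 0.595 RPKM against 29.7 ± 0.558 (log2 fold change -0.12, adjusted p = 0.0192). Kdm1a, which encodes LSD1 itself, was 1.25-fold higher at 11.3 ± 0.331 RPKM against 9.09 ± 0.331 (adjusted p = 7.4e-04).

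The list of other genes described as Notch targets in some tissue also took in Hes6, a relative of Hes1. It had 8 of 12 tested members higher and 2 lower (median 0.77), the same counts as with scaling. Hes6 was among those higher, and most of the listed genes answer to other pathways as well. Ccnd1, cyclin D1, Snai2 and Snai1, repressors of epithelial genes, were 4.49-fold, 3.39-fold and 3.30-fold higher. Myc, a growth regulator, and the cell cycle inhibitor Cdkn1a were lower, Myc at 11.0 ± 0.915 RPKM with 611 against 13.4 ± 0.156 with DMSO and Cdkn1a at 98.1 ± 1.37 RPKM with 611 against 149 ± 5.21 with DMSO. Nrarp and Hes5, which are also used as readouts of Notch, were close to or at 0, unlike Hes1. Nrarp, a feedback inhibitor of Notch, had 0.0190, 0 and 0.0570 RPKM with 611 and 0, 0.0782 and 0 with DMSO. Hes5 was listed at 0 in every library except DMSO replicate 1, which had 0.0404 RPKM. Hes6, a relative that opposes Hes1 in mouse neural cells, was 1.77-fold higher at 21.3 ± 1.97 RPKM against 12.1 ± 0.968.

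Markers of other cells that use Notch were set beside these values. Of 11 mural cell markers, 8 could be tested, with 3 higher, 1 lower and 4 not passing. Of all genes tested, 41.6% were higher and 17.7% lower. The median log2 fold change of the mural list was 0.10, as for all genes. The sum of the list was 153 to 161 RPKM with 611 and 108 to 111 with DMSO. Acta2, Pdgfrb and Tagln were 2.55-fold, 2.53-fold and 1.84-fold higher, Mcam was lower at 28.9 ± 0.956 RPKM against 49.9 ± 2.22, and Kcnj8 was listed at 0 in all 6 libraries. Of 10 endothelial markers 9 were too low to test and 4, among them Kdr and Cdh5, were listed at 0 in all 6, with sums of 0.351 to 0.488 RPKM with 611 and 0.134 to 0.347 with DMSO. The endothelial marker that could be tested, the receptor gene Tek, averaged 0.254 ± 0.0216 RPKM with 611 and 0.0852 ± 0.0157 with DMSO, and was called 2.98-fold higher (adjusted p = 0.00747 by limma). Mesenchymal genes and 3 of the 8 tested mural genes were higher alongside the receptors, while fat cell genes were lower. Pdgfrb stood in both the mural and the mesenchymal list. The part of these genes in the results was not tested.

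The tested genes with the profile most like that of Notch3 were Ttyh3, Cmklr1 and Cacnb3. Likeness was the root mean square difference of centred log2(RPKM + 1) values over the 6 libraries, which was 0.0352 for Ttyh3, 0.0395 for Cmklr1 and 0.0425 for Cacnb3. Ttyh3, a chloride channel family gene, had 14.3, 18.6 and 15.2 RPKM with 611 and 5.47, 6.65 and 5.61 with DMSO, with replicate 2 highest in both groups as for Notch3. Cmklr1, the receptor of chemerin, had 4.52, 5.26 and 4.66 RPKM with 611 and 1.17, 1.52 and 1.27 with DMSO.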

How the data were processed

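Messenger RNA libraries were made with a stranded kit from TRIzol-extracted RNA, per the labels' protocols. Per the submitters' processing notes, TopHat2 2.0.12, TopHat, SAMtools and the mouse build mm9 were used. The authors deposited 1 RPKM value per library for each of 28430 RefSeq transcripts. The sources used here name neither the program behind the RPKM values nor its use of strand, so overlapping and antisense genes cannot be told apart. Accessions were matched to symbols in a RefSeq table of GRCm38.p6 (27789 matched), and 1 further list gene was matched through GENCODE. Dlk2 was not analysed here.

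The RPKM values were analysed as log2(RPKM + 1) with limma 3.58.1 (R 4.3.3) with trend and group as the only term, on genes with at least 0.1 RPKM in at least 3 libraries. P-values were Benjamini-Hochberg adjusted over all 13829 genes. Such log2 fold changes understate changes of low genes. Folds are ratios of mean RPKM. The fit was checked on simulated data with independent noise between libraries and far fewer changed genes than were called here. That check does not cover shared deviations of same-numbered libraries or a change of so many genes. Read numbers of low genes were taken at the transcript length nearest the reference length that made all 6 values whole within 0.02 reads plus 2.0e-04 per read, and a multiple of that length would also do. The sources used here do not say whether reads or read pairs were counted.

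Same-numbered libraries deviated together from their group means (correlations across genes of 0.296, 0.298 and 0.177). A fit with replicate number as a block was therefore run as an alternative. The sample titles give replicate numbers only, and what same-numbered libraries share is not known here. The 10 genes and all lists were chosen with earlier results of these data known. All 10 were named. Of each other list, up to 3 called genes in each direction with at least 1 RPKM and the largest log2 fold changes were to be named, plus all other receptors and ligands. Lfng, Adam17, Maml1, Kdm1a, Hes5, Hes6 and Nrarp were named after their values were seen. Some genes of the lists enter the counts and are not reported here by name. Sequences came from RefSeq tables.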

Additional observations from a re-analysis of the deposited data

How the results depend on the processing

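The 6 calls among the 10 genes held in every alternative tried: a pseudocount of 0.1, no filter or a stricter filter of 1 RPKM, median-of-ratios scaling, removal of the trend on transcript length and level, the other transcripts of Rbpj, each library left out in turn, and the replicate block. The counts of members higher and lower were 6 and 0 in each, and the range without 1 library was 6 to 6 and 0 to 0. With the replicate block, 6169 genes were higher and 2700 lower over all genes, the members' counts were 6 and 0, and the block changed no call among the 10 genes. Among the listed genes it also called Adam17, Rfng, Cir1 and Cspg4, and it changed no other call of a gene named here. Removing the length and level trend gave 3642 genes higher and 4341 lower, against 5758 and 2451 without it, and median-of-ratios scaling gave 3941 and 3962; the cause was not tested. Leaving out a library gave 5171 to 5533 genes higher and 2165 to 2327 lower.

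The log2 fold change of Notch3 ran from 1.06 to 1.51, that of Notch1 from 0.71 to 1.06, that of Notch2 from 0.47 to 0.74, that of Rbpj from 0.52 to 0.80, that of Hes1 from 0.35 to 0.67 and that of Jag1 from 0.22 to 0.51 over the alternatives. The uncalled Hey1 changed sign with the trend removed (-0.0190). Hey2 changed sign with a pseudocount of 0.1 (-0.0045), with scaling (-0.0796), with the trend removed (-0.21) and without a library, where it lay between -0.0804 and 0.101. Depth limits Heyl, Jag2 and Nrarp, which had few or no reads.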
